A study of Mus musculus and Rattus norvegicus with 30 samples.

Results

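Complex I (NADH:ubiquinone oxidoreductase) is described here through its nuclear-encoded subunit genes, in rat heart muscle cells and in mouse left ventricle. Members were the protein-coding genes whose symbol begins with Nduf followed by a, b, c, s or v and a digit. The rule found 36 of 32545 genes in the rat table and 39 of 54307 genes in the mouse tables, and 32 and 38 of these had enough counts to be tested. The rule used names only, with no measured value. Symbols of this form with no protein-coding match in the rat table (Ndufs6, Ndufa12, Ndufa3, Ndufb1 and Ndufb4) were not analysed here in rat.

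The rat libraries came from neonatal rat ventricular myocytes (NRVM), heart muscle cells isolated from pups of postnatal day 3 and depleted of fibroblasts by attachment to plastic. They carried scramble siRNA or siRNA against ERRalpha and ERRgamma at 25 nM, and received the estrogen-related receptor (ERR) agonist 915 at 10 µM or the vehicle DMSO over 24 hours, which gave 4 groups of 3 libraries. The mouse libraries came from left ventricle of WT mice after transverse aortic constriction (TAC, a surgical pressure overload) or sham surgery, with the ERR agonist 332 injected into the peritoneum for 6 weeks or vehicle. There were 3 sham vehicle, 5 sham 332, 5 TAC vehicle and 5 TAC 332 hearts, and strain, sex and age are not given in the sources used here. Nothing in the labels says whether rat replicates were separate isolations, so p-values measure the spread between these libraries, which may be technical. Each is poly(A) RNA sequencing of bulk material, in which fewer cells of a type and less RNA per cell cannot be told apart.

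Complex I is the entry point of the respiratory chain: it takes electrons from NADH, passes them to ubiquinone and pumps protons across the inner mitochondrial membrane. Its N module holds the flavin site that oxidises NADH, its Q module passes the electrons on to ubiquinone, and its membrane arm, with proximal and distal P modules, pumps the protons. Conserved core subunits carry the chemistry, accessory subunits surround and stabilise them, and the membrane core is encoded by the mitochondrial genome. The heart, which draws most of its ATP from oxidative phosphorylation, is rich in this complex, and the ERR nuclear receptors are known activators of oxidative phosphorylation genes through the response element TNAAGGTCA.

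RefSeq promoter windows of mouse (GRCm38.p6, from 250 bases before to 50 after each start) were found for 33 of the 39 mouse members. They are shown because the members moved together in most comparisons below, and because one of the binding motifs is that of the receptors targeted in rat cells. Rat promoters were not analysed here. The core of the ERR element, AAGGTCA on either strand, was in windows of 3 members (Ndufb2, Ndufb4 and Ndufs5), 9.1% of those matched, against 5.38% of 27025 genes. The longer TNAAGGTCA, which contains it, was in 1 member, Ndufb4 (3.0% against 1.43%). The palindrome of the nuclear respiratory factor NRF1 was in 7 members, 21.2% against 5.19%, and the YY1 motif GCCATNTT was in 12, 36.4% against 6.96%. The ETS motif CCGGAAG was in 4 members, 12.1% against 9.93%. The 3 windows with this core, and a window of Ndufa5, are given over their 250 upstream bases, 5′ to 3′. Ndufa5 was the subunit with the lowest log2 fold change after TAC in vehicle hearts. Matches to AAGGTCA, TNAAGGTCA, the NRF1 motif and GCCATNTT on either strand are in capitals.
Ndufb2, chr6:39592315-39592564, plus strand: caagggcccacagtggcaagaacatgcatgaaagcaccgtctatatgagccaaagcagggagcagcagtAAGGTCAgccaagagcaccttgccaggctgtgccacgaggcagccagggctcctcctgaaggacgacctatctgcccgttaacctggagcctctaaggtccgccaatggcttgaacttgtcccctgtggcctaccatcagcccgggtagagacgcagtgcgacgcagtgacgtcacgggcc
Ndufb4, chr16:37654369-37654618, minus strand: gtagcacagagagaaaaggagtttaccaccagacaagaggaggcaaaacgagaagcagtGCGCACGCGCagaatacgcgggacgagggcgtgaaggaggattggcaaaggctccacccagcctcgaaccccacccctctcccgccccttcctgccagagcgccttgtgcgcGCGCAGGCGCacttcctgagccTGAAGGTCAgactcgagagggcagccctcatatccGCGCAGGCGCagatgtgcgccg
Ndufs5, chr4:123718187-123718436, minus strand: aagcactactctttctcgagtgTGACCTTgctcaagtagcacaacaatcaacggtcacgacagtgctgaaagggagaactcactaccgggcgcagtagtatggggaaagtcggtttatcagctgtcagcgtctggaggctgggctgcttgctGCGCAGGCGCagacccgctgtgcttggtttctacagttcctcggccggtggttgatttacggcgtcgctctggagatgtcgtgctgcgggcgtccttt
Ndufa5, chr6:24527527-24527776, minus strand: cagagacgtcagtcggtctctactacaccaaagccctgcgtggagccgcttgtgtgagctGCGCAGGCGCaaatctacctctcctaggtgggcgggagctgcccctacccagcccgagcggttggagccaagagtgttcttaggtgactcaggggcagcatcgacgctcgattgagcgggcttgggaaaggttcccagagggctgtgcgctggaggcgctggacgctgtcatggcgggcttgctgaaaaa
The ERR core began at -181 in Ndufb2 and at -55 in Ndufb4, both on the gene's strand, and at -228 in Ndufs5 on the opposite strand. The Ndufb4 window held 3 NRF1 matches, at -191, -79 and -22, and the Ndufs5 window 1, at -98. Ndufa5 had another window, chr6:24527691-24527940 on the minus strand, which is not shown. Its NRF1 match began at -190 in the window shown and at -26 in the other. These are matches of letters only, and no binding was measured.

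In scramble vehicle cells, members were compared per length in FPKM (fragments scaled by gene length and library size), the authors' values. Ndufb9, an accessory subunit of the distal membrane arm, stood first at 274 ± 22.6 FPKM (SD, n = 3) and Ndufa4 second at 238 ± 19.0. Ndufa4 carries a complex I name, but its protein is now assigned to complex IV. The lowest of the well-detected members was Ndufs4, an accessory subunit of the N module whose loss causes Leigh syndrome, at 49.2 ± 4.20 FPKM. Among the tested members, neighbours in this order overlapped in range, except that Ndufs1 (85.4 ± 7.19 FPKM) lay above Ndufa8 (64.7 ± 5.31 FPKM) and Ndufs4 above Ndufv3-ps1 (5.09 ± 2.37 FPKM), which in turn lay above the untested Ndufa1. A total of 4 rat members were too low to test. Ndufa4l2, a paralog known for its induction by hypoxia, had 0 to 16 counts, Ndufb4l1 0 to 3, and a second gene named Ndufa13 on chromosome 7 had 1 to 10. Ndufa1, which encodes a small membrane subunit, had 2 to 8 counts in 10 libraries, but 460 in scramble 915 replicate 3 and 159 in knockdown 915 replicate 1. Those libraries belong to different groups and stood apart from their own replicates.

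In sham vehicle hearts the summed TPM (the transcript analogue, scaled by length and library total) placed Ndufa4 first at 721 ± 24.8 TPM (SD, n = 3), above the range of every other member. Ndufa3 (499 ± 35.8 TPM) and Ndufa10 (490.0 ± 25.2 TPM) followed. A mean of 90.0% and 83.9% of their TPM over all hearts lay on transcripts not annotated as protein-coding, which limits their rank. Next came Ndufb9 at 401 ± 28.7 TPM and Ndufb10 at 396 ± 19.1 TPM, whose ranges overlapped. Over all hearts, a mean of 36.95% of the TPM of Ndufb10 lay on such transcripts, against 0.0765% for Ndufb9. Ndufs4 was again low, at 43.1 ± 4.39 TPM, and 84.7% of its TPM over all hearts was of that kind. Ndufa4l2 was at 7.31 ± 0.386 TPM and Ndufb11b at 0 counts in every heart. Non-coding transcripts also took a mean of 88.2% of the reads of Ndufc1, 78.8% of Ndufa3, 72.9% of Ndufs4 and 50.9% of Ndufs7, the last ranging from 0.486% to 80.4% between hearts. Reads were summed over all transcripts of a gene.

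All members together made up 0.333 ± 0.017% of counts in scramble vehicle cells (SD, n = 3), 0.427 ± 0.006% with 915, 0.230 ± 0.004% with the knockdown and 0.293 ± 0.020% with both. On the CPM scale (counts scaled by library size, with TMM factors between libraries) their sums were 3264 to 3666 in scramble vehicle cells, 4403 to 4500 in scramble 915 cells, 2192 to 2274 in knockdown vehicle cells and 2633 to 3025 in knockdown 915 cells. No 2 of these ranges overlapped. The mouse sums were 8548 to 8758 CPM in sham vehicle hearts, 8215 to 10700 in sham 332 hearts, 6468 to 8363 in TAC vehicle hearts and 6443 to 9587 in TAC 332 hearts. Sham vehicle hearts lay above every TAC vehicle heart, and the other pairs of mouse groups overlapped.

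**Figure D1:**
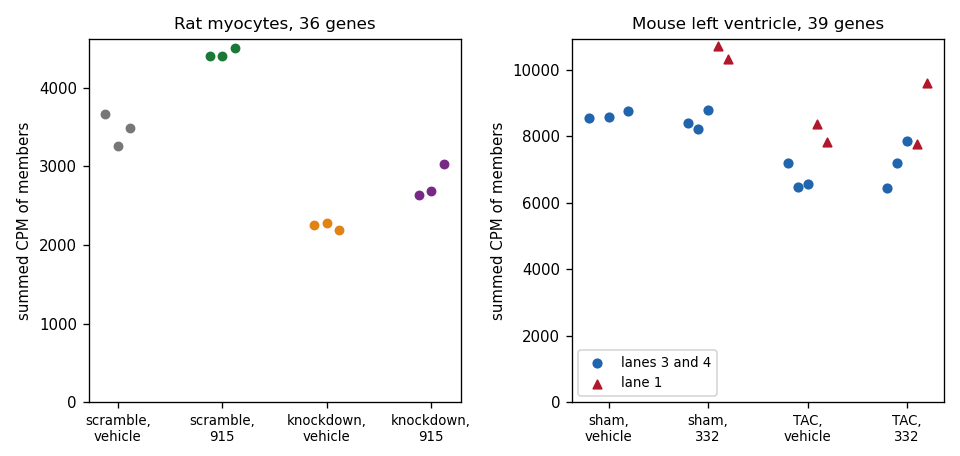
Summed CPM of the complex I subunit genes in every library (vertical axis, from 0), with 1 point per library and groups on the horizontal axis. In rat the 4 groups are separate, between 2192 and 4500 CPM. In mouse, hearts of lane 1 (triangles) reach up to 10700 CPM and those of lanes 3 and 4 (circles) up to 8786 CPM.

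The mouse files name the sequencing lane, and the members differed by lane. Replicates 1 to 3 of every group came from lanes 3 and 4, and replicates 4 and 5 of the other 3 groups from lane 1, so sham vehicle hearts have no lane 1 library. Of the former, the sham 332 hearts were all in lane 3 and those of the other groups in lane 4, so within that set lane 3 and sham 332 cannot be told apart. With lane 1 as a term beside the group, 29 of 38 members were higher in lane 1 and 0 lower, with a median log2 difference of 0.30. Of all 14047 genes 2465 were higher and 2373 lower (34.4% either way), with a median of 0.01. Sham 332 hearts alone show it: their sums were 8215 to 8786 CPM in lane 3, against 10330 and 10700 CPM in lane 1. The shift was not particular to the members. In these hearts nuclear subunits of complexes II to V summed to 24560 to 26280 CPM in lane 3 and 28480 to 29480 in lane 1. Cardiomyocyte markers summed to 52890 to 57150 and 68720 to 70540 CPM, while the lane ranges of fibroblast and of leukocyte markers overlapped. The mouse comparisons therefore carry the lane term, and values are given by lane. Which animals or handling the lanes stand for is not given in the sources used here.

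The labels were checked on the targeted genes. Esrra, which encodes ERRalpha, spanned 170 to 199 CPM in scramble vehicle cells and 13.98 to 21.95 in knockdown vehicle cells, and Esrrg, which encodes ERRgamma, 130.3 to 131 and 17.5 to 18.7. The genotype label names these genes, while the treatment protocol also lists siRNA against Esrrb and E2f1. Esrrb, which encodes ERRbeta, spanned 3.01 to 4.43 CPM in scramble vehicle and 0.665 to 1.19 CPM in knockdown vehicle cells and fell by 1.88 on the log2 scale (SE 0.27, adjusted p = 1.06e-05), so its part in the knockdown effects cannot be told apart from that of the other receptors. All 7 cardiomyocyte markers reached 1 CPM in at least 1 library of either species. Depth per library was 12013379 to 18315341 counts in rat, and in mouse 11375917 to 16599930 estimated counts. The share of mitochondrially encoded counts moved with the groups in rat, at 6.13%, 7.65%, 4.87% and 6.39% in scramble vehicle, scramble 915, knockdown vehicle and knockdown 915 cells. In mouse this share was 35.4% to 36.04% in sham vehicle hearts, 32.8% to 34.8% in TAC vehicle hearts of lane 4 and 23.7% to 25.6% in those of lane 1.

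The first comparison asked how complex I expression in vehicle cells differs with the siRNA against ERRalpha and ERRgamma. With the knockdown, 31 of 32 tested members fell and 0 rose, against a background of 12.7% of 15181 genes that fell and 7.75% that rose. The median log2 fold change over the members was -0.60, and that over all genes 0.01. The 7 nuclear core subunits had the lower median, -0.78, and the 23 tested accessory subunits -0.60. By module the medians were -0.60 for N, -0.69 for Q, -0.48 for the proximal and -0.68 for the distal membrane arm, and every tested member in each module passed. The one member not called was Ndufv3-ps1, a pseudogene-like copy of Ndufv3 with 3 to 38 counts, at -0.67 (SE 0.47, adjusted p = 0.362). Its reads cannot be separated with certainty from those of Ndufv3.

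Ndufv1, the flavin-bearing core subunit that binds NADH, measured 226, 188 and 202 CPM in the 3 scramble vehicle libraries and 105, 116 and 110.1 CPM in the 3 knockdown vehicle libraries. Its log2 fold change was -0.90 (SE 0.07, adjusted p = 3.48e-10). The groups were far apart, with the highest knockdown library well under the lowest scramble one.

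Ndufv2, its partner with an iron-sulfur cluster, measured 175, 156 and 175 CPM with scramble and 89.1, 93.1 and 86.7 CPM with the knockdown, a log2 fold change of -0.91 (SE 0.06, adjusted p = 1.89e-11). This was the smallest adjusted p among the members, and no library crossed between the groups. Ndufs1, the largest subunit, which carries the electron relay of the N module (rat build rn6, chromosome 9, 69919867 to 69953182), measured 218, 193 and 229.5 CPM with scramble and 124, 117 and 132.5 CPM with the knockdown. It fell by 0.78 on the log2 scale (SE 0.06), to 0.583 of the control level.

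Core subunits of the Q module fell as well. Ndufs3 measured 99.8, 92.0 and 98.3 CPM with scramble and 57.0, 53.4 and 58.4 CPM with the knockdown. Ndufs7, which holds the last iron-sulfur cluster before ubiquinone (chromosome 7, 12318757 to 12326392), measured 116, 107.5 and 104 CPM against 74.7, 70.2 and 72.6 CPM. In neither gene did the groups overlap, and the log2 fold changes were -0.78 and -0.59. Ndufs8, also an iron-sulfur subunit, measured 86.7, 78.4 and 83.6 CPM with scramble and 50.0, 58.6 and 52.3 CPM with the knockdown, likewise without overlap, at -0.63.

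Among accessory subunits the lowest fold change was that of Ndufb3, a small protein of the distal membrane arm. It measured 53.2, 39.7 and 41.5 CPM with scramble and 24.7, 20.4 and 20.6 CPM with the knockdown, a log2 fold change of -1.03 (SE 0.12, adjusted p = 4.59e-06), so that each knockdown library was well below each control. Ndufa9, a Q module subunit, and Ndufb8, of the distal arm and often used as a protein marker of complex I, changed by -0.71 and -0.82. The fold change nearest to 0 among called members was that of Ndufa8, which measured 73.0, 63.9 and 62.2 CPM with scramble and 59.1, 57.7 and 54.0 CPM with the knockdown, at -0.22 (SE 0.08, adjusted p = 0.0459). Ndufa4 measured 199.5, 171 and 197 CPM against 136, 133 and 139 CPM and fell by 0.48 on the log2 scale. In 31 of 32 members the 2 groups did not overlap, against 36.1% of all tested genes.

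The rest of the chain and its assembly gave these values. Of the nuclear subunits of complexes II to V, 38 of 41 fell, with a median of -0.71, and of the complex I genes of the mitochondrial genome 6 of 7 fell, with a median of -0.49. Complex I assembly factors, which help build the complex without staying in it, fell in 8 of 17 cases and rose in 0, with a median of -0.24. The factor with the smallest adjusted p was Ndufaf4, at -0.68 (SE 0.08). Cardiomyocyte markers moved too: 5 of 7 fell, and their sum went from a range of 12960 to 14340 CPM down to 8705 to 9004 CPM. Leukocyte markers rose in 3 of 5 cases, from sums of 36.5 to 40.0 CPM to sums of 60.1 to 63.9 CPM, and no marker of any list was at 0 in every library. Their part in the fall of the complex I genes was not tested.

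**Figure D2:**
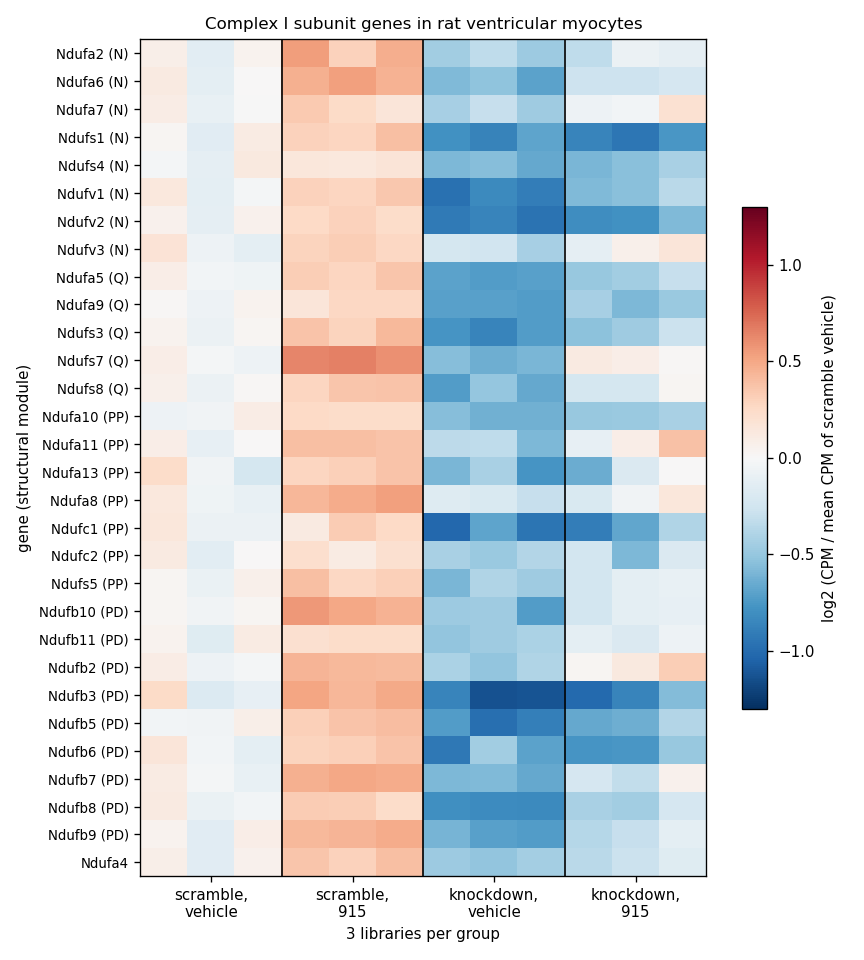
Each row is a tested complex I gene (Ndufv3-ps1 left out) with its structural module in brackets (N, Q, PP for proximal and PD for distal membrane arm), each column 1 of the 12 rat libraries, and the colour the log2 ratio of CPM to the mean of the scramble vehicle libraries. Scramble 915 libraries are above that mean for nearly all genes and knockdown vehicle libraries below it, while knockdown 915 libraries differ from gene to gene, with Ndufs1 low and Ndufs7 near the control level.

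The next comparison asked what the agonist 915 does without the knockdown. In scramble cells 27 of 32 members rose and 1 fell, against backgrounds of 21.5% and 20.6% of genes (42.2% in either direction). The median over the members was 0.33, that over all genes 0.01, and both the core (0.34) and the accessory subunits (0.32) were close to it. In 30 of the 32 members the groups did not overlap, against 52.9% of all tested genes. Those not called were Ndufs4 at 0.15 (SE 0.07, adjusted p = 0.0676), Ndufc1 at 0.24, Ndufc2 at 0.18 and Ndufa13 at 0.32. The first 3 of these passed under at least 1 alternative or with 1 library left out, such as Ndufs4 without scramble vehicle replicate 3 (0.22, adjusted p = 0.0157).

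Ndufs7 had the highest fold change, with 169, 172 and 165 CPM in scramble 915 libraries against the values up to 116 CPM of their vehicle controls above. It rose by 0.63 (SE 0.05, adjusted p = 8.71e-10), which is 1.54-fold. The next by adjusted p were Ndufb10, of the distal arm, at 0.51 (SE 0.07, adjusted p = 6.70e-07), and Ndufa6, an LYR-motif protein of the N module that binds the acyl carrier protein, at 0.48 (SE 0.06, adjusted p = 9.62e-07). Ndufs1 measured 262, 259 and 279 CPM with 915, above all 3 of its vehicle libraries, with a log2 fold change of 0.32.

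The other core subunits also stood higher in every treated library. Ndufv1 measured 253, 249.7 and 262 CPM and Ndufv2 202, 207.5 and 199.6 CPM with 915. Ndufs3 measured 125, 118 and 129.7 CPM and Ndufs8 101, 106 and 107 CPM. Their log2 fold changes were between 0.27 (Ndufv2) and 0.36 (Ndufs3). Ndufa4 measured 242, 233 and 248 CPM and rose by 0.35 on the log2 scale. The single fall was in Ndufv3-ps1, with 38, 31 and 12 counts in vehicle and 5, 12 and 3 counts in 915 libraries, at -2.05 (SE 0.53, adjusted p = 0.00265). Those groups touch at 12 counts.

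Complexes II to V rose in 33 of 41 cases (median 0.37), the mitochondrially encoded complex I genes in 6 of 7 (0.44) and the assembly factors in 9 of 17 (0.34), led by Ndufaf4 at 0.72 (SE 0.08). Of the fibroblast markers 5 of 7 fell and 1 rose, and their sum was 7553 to 8316 CPM with 915 against 13690 to 14740 CPM without. Smooth muscle and pericyte markers fell in 4 of 5 cases. Cardiomyocyte markers gave 3 higher and 1 lower of 7, with sums of 18150 to 19180 CPM against 12960 to 14340 CPM. The part of these shifts in the rise of the complex I genes was not tested.

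The agonist was also given to knockdown cells, in libraries that share none with the comparison above. There 21 of 32 members rose and 0 fell, against 18.1% of genes higher and 17.6% lower (35.7% either way), with a median of 0.32. All of the 21 were among the 27 that rose in scramble cells, 77.8% of those. The 27 were most of the 32 tested members, so much of this overlap follows from the counts. Those called only in scramble cells included Ndufs1, Ndufa8, Ndufa10, Ndufb3 and Ndufb6. Such a difference in calls is not a test of the difference, which is given further on. In 21 of 32 members the groups did not overlap, against 45.6% of all tested genes.

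Ndufs7 again came first, at 119, 116 and 110.5 CPM against 74.7, 70.2 and 72.6 CPM without 915, a log2 fold change of 0.66 (SE 0.05, adjusted p = 9.10e-10). With 915, its knockdown libraries reached the range of scramble vehicle cells (104 to 116 CPM). Ndufb2, a distal arm subunit, measured 72.7, 78.0 and 89.4 CPM against 53.6, 49.9 and 54.6 CPM, at 0.60 (SE 0.07, adjusted p = 2.54e-07), again with no overlap. Ndufs8 measured 70.7, 70.6 and 84.2 CPM with 915 and rose by 0.49, and Ndufb8 rose by 0.45.

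Ndufv1, at 138, 141 and 161 CPM, and Ndufs3, at 67.0, 70.0 and 79.5 CPM, rose by 0.41 and 0.36 and remained under every scramble vehicle library. Ndufv2 measured 96.6, 97.6 and 113 CPM, at 0.19 (SE 0.06, adjusted p = 0.0159), and its call was lost without knockdown 915 replicate 3 (0.12, adjusted p = 0.153), without knockdown vehicle replicate 1 (0.19, 0.0519) or without knockdown vehicle replicate 3 (0.17, 0.072). Knockdown 915 replicate 3 had the highest summed level of its group. Ndufa4 measured 149, 155.5 and 169 CPM and rose by 0.22.

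Ndufs1 did not pass. It measured 118, 111 and 126 CPM with 915 against 124, 117 and 132.5 CPM without, at -0.07 (SE 0.06, adjusted p = 0.429). The treated and untreated knockdown libraries overlapped. Beside the members, 26 of 41 genes of complexes II to V rose (median 0.31), 4 of 7 mitochondrially encoded complex I genes and 4 of 17 assembly factors. Of the fibroblast markers 3 of 7 fell and 1 rose, of those of smooth muscle and pericytes 4 of 5 fell and 1 rose, and of the cardiomyocyte markers 2 of 7 fell and 1 rose. Endothelial markers rose in 2 of 3 tested cases and leukocyte markers in 2 of 5, with 0 lower in each. The part of these markers in the result was not tested.

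**Figure D3:**
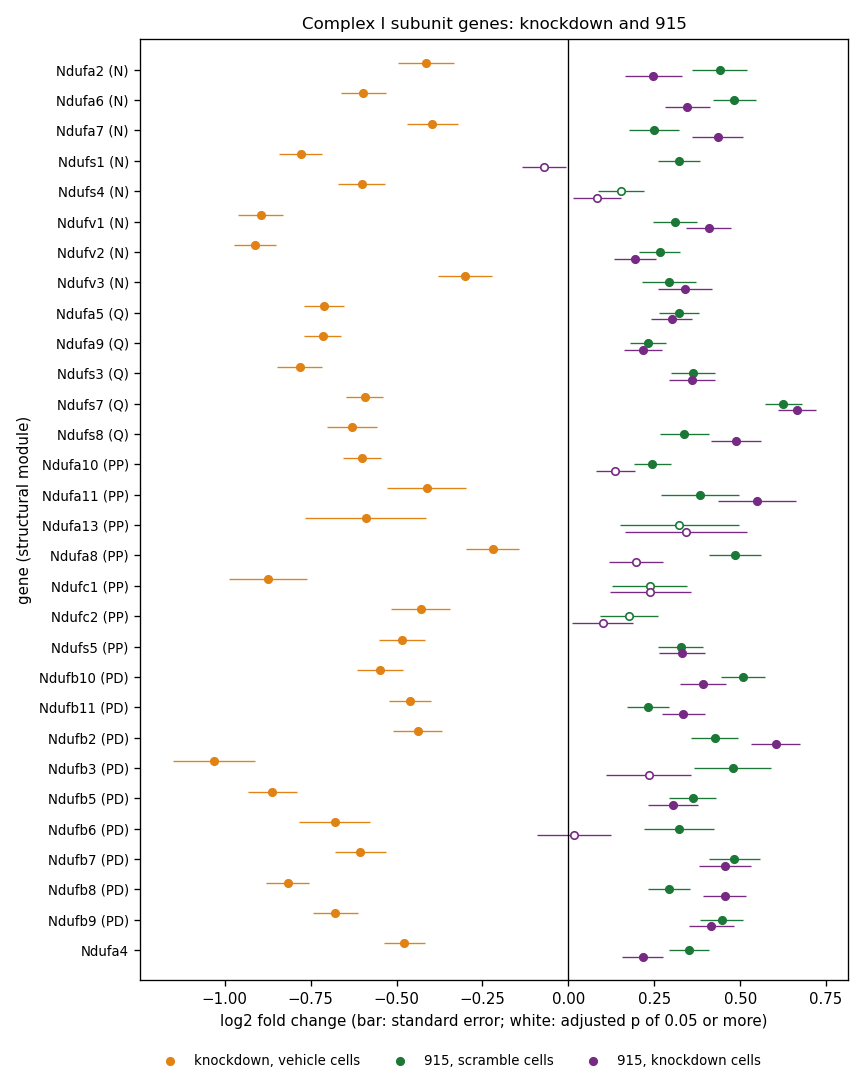
Log2 fold changes of tested complex I genes (horizontal axis, bars show the standard error) for the knockdown in vehicle cells, 915 in scramble cells and 915 in knockdown cells, with filled points past an adjusted p of 0.05 and white points not. Ndufv3-ps1 is left out. All knockdown points shown lie under 0 and all 915 points in scramble cells above it, and Ndufs1 (-0.07) is white in knockdown cells.

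The difference of the 2 agonist effects tests whether the response to 915 differed with the knockdown. Of 32 members, 2 had a lower response in knockdown cells and 0 a higher one, against 3.73% of all genes in either direction (1.74% higher and 1.99% lower). Among them was Ndufs1, with a difference of -0.39 (SE 0.09, adjusted p = 0.0129). For Ndufs1 the log2 response went from 0.32 with scramble siRNA to -0.07 under knockdown.

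Ndufs1 passed in every alternative fit with all libraries and missed narrowly without knockdown vehicle replicate 3 (-0.35, adjusted p = 0.05002) or scramble 915 replicate 3 (-0.36, 0.0553). The count of members went from 2 to 0 without either of these libraries, and to 1 without any one of 8 others, all but scramble vehicle replicate 1 and knockdown 915 replicate 3. The median difference over the members was -0.02, and that of the 7 core subunits 0.00. With 1 library left out the members' median ran from -0.12 (without knockdown 915 replicate 3) to 0.01 (without knockdown 915 replicate 1). Ndufs7 had a difference of 0.04 (SE 0.08) and Ndufs8 one of 0.15 (SE 0.10), neither past the threshold. Ndufa8 (-0.29, adjusted p = 0.161) and Ndufb6 (-0.31, adjusted p = 0.314) did not pass.

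**Figure D4:**
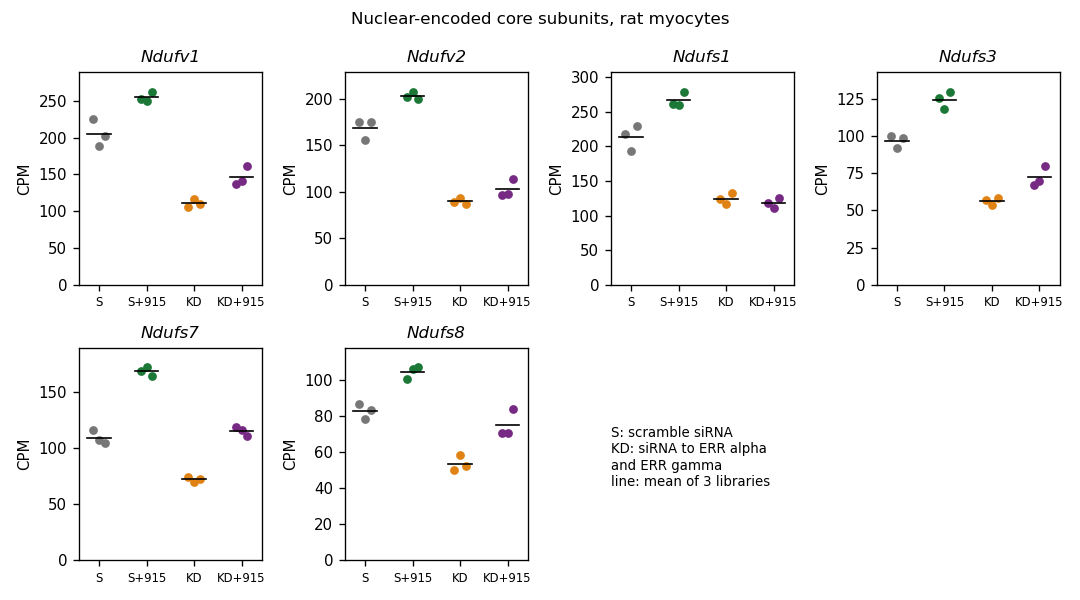
CPM of nuclear core subunits (vertical axes, from 0) in the 4 rat groups, with 1 point per library and a line at the mean of 3 libraries. Ndufs1 stands at similar levels in knockdown cells with and without 915, while Ndufs7 reaches 110.5 to 119 CPM with 915 against 70.2 to 74.7 CPM without.

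The knockdown was compared under 915 as well, between libraries not used in the vehicle comparison. There 30 of 32 members fell and 1 rose, against 17.7% and 16.2% of genes (33.9% either way), with a median of -0.66. All 30 were among the 31 that fell in vehicle cells. Those 31 were every tested member but Ndufv3-ps1, so this overlap was nearly fixed beforehand. Ndufs1 fell by 1.17 (SE 0.06, adjusted p = 4.74e-13), to 0.444 of the scramble 915 level, and Ndufv2 and Ndufa9 by 0.98 and 0.73. Ndufb3, at 22.2, 24.7 and 30.2 CPM in knockdown and 63.9, 60.3 and 63.2 CPM in scramble 915 cells, had the lowest value, -1.28 (SE 0.12, adjusted p = 1.65e-07). Its groups were again separate.

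Ndufa11, a proximal arm subunit, was not called, at -0.25 (SE 0.11, adjusted p = 0.126). It measured 173, 173.5 and 171 CPM in scramble and 123, 140.1 and 173 CPM in knockdown libraries with 915, of which replicate 3 lay in the scramble range, and without that library it passed (-0.39, adjusted p = 0.000388). Ndufv3-ps1 rose on 3 to 12 against 12 to 19 counts, at 1.47 (SE 0.55, adjusted p = 0.0387), and lost its call without any one of 4 libraries: knockdown 915 replicate 1 (1.28, adjusted p = 0.125) or 2 (1.40, 0.0968), and scramble 915 replicate 1 (1.36, 0.106) or 3 (1.097, 0.179). The list values alongside were 37 of 41 for complexes II to V (median -0.80), 7 of 7 for the mitochondrially encoded complex I genes and 12 of 17 for the assembly factors, all lower. All 7 cardiomyocyte markers fell here, and 4 of 5 leukocyte markers rose. Fibroblast markers rose in 3 of 7 cases, smooth muscle and pericyte markers in 3 of 5 and endothelial markers in 2 of 3 tested. None of these other markers was called lower. The part of all these markers in the result was not tested.

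In mouse left ventricle, TAC was first compared with sham surgery in vehicle-treated animals. With the lane term, 32 of 38 members fell and 0 rose, against 12.8% of 14047 genes that fell and 13.5% that rose. The median was -0.36 over the members and -0.01 over all genes. All 7 core subunits fell (median -0.33), as did 24 of 29 accessory subunits (-0.38). By module, 9 of 10 fell in N, 6 of 6 in Q, 6 of 9 in the proximal and 10 of 11 in the distal membrane arm. In 16 of 38 members no TAC heart reached the sham range, lanes pooled, and in 27.9% of all tested genes the 2 groups did not overlap.

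The number of calls depended on the lane term. Without it 8 of 38 fell, against 9.09% of all genes, with a median of -0.23. Within lanes 3 and 4 alone, 3 hearts against 3 and all of them in lane 4, 25 fell, against 10.4% of all genes, with a median of -0.35. With lanes 1, 3 and 4 as separate terms 30 fell, against 11.5% of all genes. Lane 1 holds no sham vehicle heart, so it gives no value. In lanes 3 and 4 the members summed to 8548 to 8758 CPM after sham surgery and 6468 to 7185 CPM after TAC.

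Ndufv1 measured 488, 483 and 500.2 CPM in sham vehicle hearts, 381, 351.5 and 322 CPM in TAC vehicle hearts of lanes 3 and 4, and 468 and 444 CPM in those of lane 1. The lanes 3 and 4 hearts with TAC lay well below all sham hearts, those of lane 1 just under them. Its log2 fold change was -0.48 (SE 0.07, adjusted p = 0.000119). Without the lane term Ndufv1 did not pass (-0.32, adjusted p = 0.116). Ndufs1 measured 658, 664 and 643 CPM in sham vehicle hearts, 522, 469.5 and 464 CPM in TAC vehicle hearts of lanes 3 and 4, and 493.5 and 467 CPM in those of lane 1. This member differed little between lanes, and no TAC heart came near the sham range. It fell by 0.42 on the log2 scale (SE 0.09, adjusted p = 0.00157), to 0.749 of the sham level.

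Ndufs3 measured 240.4, 244 and 245 CPM in sham vehicle hearts, 206, 189 and 184 CPM in TAC vehicle hearts of lanes 3 and 4, and 231 and 215.5 CPM in those of lane 1. Ndufv2 measured 351, 357 and 364 CPM in sham vehicle hearts, 319.6, 287 and 320.2 CPM in TAC vehicle hearts of lanes 3 and 4, and 321 and 297 CPM in those of lane 1. In both genes every TAC heart was below every sham heart, and the log2 fold changes were -0.33 and -0.27. Without the lane term neither Ndufs3 (-0.247, adjusted p = 0.1099) nor Ndufv2 (-0.21, 0.181) passed. The Ndufv2 call (adjusted p = 0.0293) was lost without any one sham vehicle heart (adjusted p of 0.0526, 0.0663 and 0.0858 without replicates 1, 2 and 3) or without TAC vehicle replicate 2 (0.0664), and within lanes 3 and 4 alone (-0.20, 0.0782).

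Ndufs7 measured 177, 177 and 201 CPM in sham vehicle hearts, 172, 126 and 127 CPM in TAC vehicle hearts of lanes 3 and 4, and 186.5 and 167 CPM in those of lane 1. Ndufs8 measured 127.5, 121 and 123 CPM in sham vehicle hearts, 108, 95.2 and 103 CPM in TAC vehicle hearts of lanes 3 and 4, and 128 and 113 CPM in those of lane 1. In each of these genes 1 lane 1 heart with TAC lay within or above the sham range, while all hearts of lanes 3 and 4 with TAC lay below it. The calls came with the lane term (-0.40 and -0.31). Without sham vehicle replicate 3, the highest of its group for Ndufs7, that gene did not pass (-0.34, adjusted p = 0.0618). With protein-coding transcripts only, Ndufs7 did not pass either (-0.53, adjusted p = 0.458).

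The lowest fold change was that of Ndufa5, an accessory subunit of the Q module. Ndufa5 measured 249.5, 257 and 261 CPM in sham vehicle hearts, 179, 165 and 173 CPM in TAC vehicle hearts of lanes 3 and 4, and 266 and 238 CPM in those of lane 1. Within lanes 3 and 4 the groups were far apart, and 1 lane 1 heart with TAC lay above the sham range. Its log2 fold change was -0.57 (SE 0.09, adjusted p = 0.000109). Ndufa13, also known as GRIM-19 and a proximal arm subunit, was at -0.53 (SE 0.08, adjusted p = 0.000102) and Ndufs6, a zinc-binding subunit of the N module, at -0.50 (SE 0.09, adjusted p = 0.000304). These 2 genes had no call without the lane term (-0.23 and -0.15), nor did Ndufa5 (-0.33).

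The 6 members not called were Ndufa7 (-0.23, adjusted p = 0.0757), Ndufa8 (-0.20, 0.0766), Ndufc1 (-0.28, 0.0718), Ndufb3 (-0.17, 0.204), Ndufa11 (-0.11, 0.432) and Ndufa4l2. Ndufa4l2 measured 6.26, 7.56 and 7.48 CPM in sham vehicle hearts, 8.7, 7.75 and 6.38 CPM in TAC vehicle hearts of lanes 3 and 4, and 11.2 and 9.4 CPM in those of lane 1. At 0.12 (SE 0.14, adjusted p = 0.579), it was the one member above 0. Ndufa7, Ndufa8 and Ndufc1 each passed with 1 TAC heart left out, for example without TAC 332 replicate 4 (adjusted p of 0.0462, 0.0291 and 0.0324). Ndufa4 measured 450.2, 485 and 480.1 CPM in sham vehicle hearts, 396, 363 and 363.5 CPM in TAC vehicle hearts of lanes 3 and 4, and 378 and 342 CPM in those of lane 1. Ndufa4 fell by 0.36, and all its TAC hearts were below the sham range.

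Of complexes II to V, 37 of 41 fell, with a median of -0.40, and 3 of 7 mitochondrially encoded complex I genes (median -0.20). Of the assembly factors 1 of 18 fell, Tmem70 at -0.25 (SE 0.09). Ndufab1, the mitochondrial acyl carrier protein that is also a complex I subunit but falls outside the naming rule, was at -0.45 (SE 0.11, adjusted p = 0.00348). Fibroblast markers rose in 6 of 7 cases, with sums of 497 to 565 CPM in sham and 1099 to 2015 CPM in TAC vehicle hearts. Cardiomyocyte markers fell in 4 of 7 cases and rose in 1, and summed in lanes 3 and 4 to 50740 to 53000 CPM after sham surgery and 40830 to 45310 CPM after TAC. Leukocyte and endothelial markers each rose in 2 of 5 cases, with 0 lower, and 0 of 5 smooth muscle and pericyte markers passed. The part of these cell-type markers in the fall of the complex I genes was not tested.

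**Figure D5:**
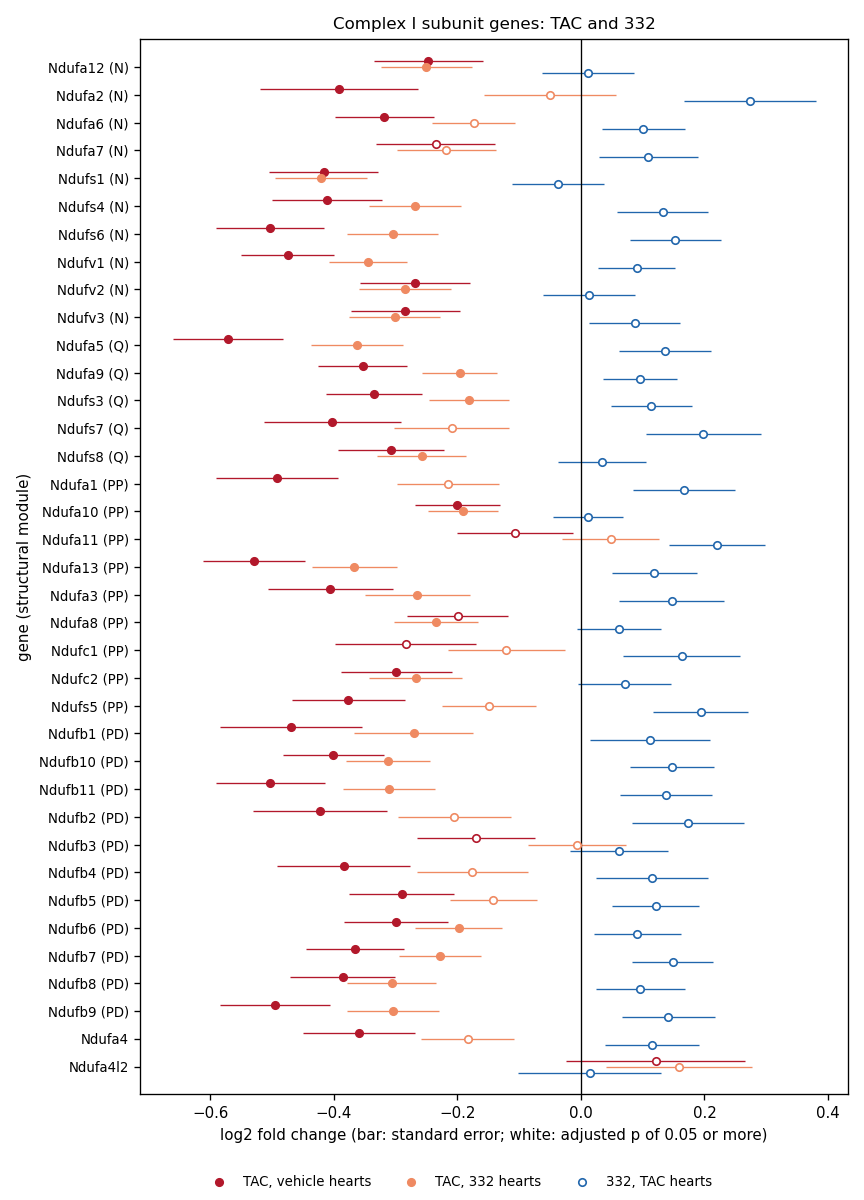
Log2 fold changes of tested complex I genes in mouse left ventricle (horizontal axis, bars show the standard error) for TAC in vehicle hearts, TAC in 332 hearts and 332 in TAC hearts, with filled points past an adjusted p of 0.05. The TAC points in vehicle hearts run from -0.57 (Ndufa5) to 0.12 (Ndufa4l2), and every point for 332 in TAC hearts is white, with all but Ndufs1 above 0.

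The same contrast was made among 332-treated animals, 5 hearts against 5. Here 24 of 38 members fell and 0 rose, against 12.1% and 11.8% of genes (23.8% either way), with a median of -0.23. The core gave 6 of 7 and the accessory subunits 18 of 29. Of the 24, 23 had also fallen in vehicle hearts (95.8% of the 24 and 71.9% of the 32), and the other was Ndufa8. In vehicle hearts 32 of 38 members had fallen, so much of this overlap follows from the counts. In 2 of 38 members the pooled groups did not overlap, against 11.1% of all genes. Without the lane term 5 members fell (7.47% of all genes), in lanes 3 and 4 alone 9 (5.64%), and in lane 1 alone, with 2 hearts per group, 0 (0.0937%), with medians of -0.23, -0.21 and -0.28. In lanes 3 and 4 the sham hearts of this comparison were in lane 3 and the TAC hearts in lane 4, so that lane and surgery cannot be told apart there. With lanes 1, 3 and 4 as separate terms 9 members fell, against 4.75% of all genes, with a median of -0.27.

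Ndufs1 had the lowest value, -0.42 (SE 0.07, adjusted p = 0.000385). In 332 hearts Ndufs1 measured 615, 638 and 665 CPM after sham surgery and 489, 537 and 428 CPM after TAC in lanes 3 and 4, against 639 and 595 CPM and 386 and 516 CPM in lane 1. No TAC heart reached the sham range in either lane set. Ndufv1 was at -0.34 (SE 0.06, adjusted p = 0.000507), and without the lane term it did not pass (-0.344, adjusted p = 0.059). In 332 hearts Ndufv1 measured 472, 481 and 484 CPM after sham surgery and 344, 388 and 395 CPM after TAC in lanes 3 and 4, against 589 and 629.6 CPM and 438 and 527 CPM in lane 1. Within each lane set the groups were separate, while the pooled ranges overlapped.

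In 332 hearts Ndufs7 measured 181, 182 and 180.1 CPM after sham surgery and 140.2, 161 and 186 CPM after TAC in lanes 3 and 4, against 238 and 257 CPM and 173 and 233 CPM in lane 1. This gene did not pass, at -0.21 (SE 0.09, adjusted p = 0.111), and in lanes 3 and 4 its groups overlapped. Without TAC 332 replicate 5 it passed (-0.27, adjusted p = 0.0485). Ndufs3, at -0.18 (SE 0.07, adjusted p = 0.0471), was the core subunit nearest the threshold and was lost with 10 of 18 hearts left out in turn, reaching an adjusted p of 0.134 without TAC 332 replicate 4. It was also lost with the 3 lanes as separate terms (-0.26, adjusted p = 0.0804) and without the lane term (-0.19, 0.1855). The same held in lanes 3 and 4 alone (-0.096, 0.451) and in lane 1 alone (-0.29, 0.3009). With no low-count filter, with the replicate block and with only the groups compared, Ndufs3 did not pass either (adjusted p of 0.113, 0.0673 and 0.1073).

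Ndufv2 and Ndufs8 fell by 0.29 and 0.26 on the log2 scale. Ndufa13 and Ndufa5 were at -0.37 and -0.36. Without the lane term Ndufs8, Ndufa13 and Ndufa5 did not pass (adjusted p of 0.131, 0.239 and 0.18). Ndufs8 was also lost in lanes 3 and 4 alone (-0.195, adjusted p = 0.147), and Ndufa5 with protein-coding transcripts only (-0.243, 0.118). Ndufa4 was at -0.18 (SE 0.08, adjusted p = 0.0829) and Ndufa4l2 at 0.16 (SE 0.12, adjusted p = 0.36), neither past the threshold. Complexes II to V fell in 31 of 41 cases (median -0.30), the mitochondrially encoded complex I genes in 6 of 7 and the assembly factors in 2 of 18, while fibroblast markers rose in 5 of 7 and cardiomyocyte markers fell in 5 of 7 and rose in 1, whose part was not tested.

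The agonist 332 was then compared with vehicle within TAC hearts. No member passed the test in edgeR or in DESeq2, where 0.427% of genes did in edgeR. Unadjusted, 7 of 38 members had p under 0.05, against 12.7% of all genes. The log2 fold changes lay between -0.04 (Ndufs1) and 0.27 (Ndufa2), with 37 of 38 above 0, against 7344 of 14047 genes. Their median was 0.11, against 0.01 over all genes. Without TAC 332 replicate 3 the members' median was 0.06. The highest values were those of Ndufa2 at 0.27 (SE 0.11, adjusted p = 0.274), Ndufa11 at 0.22 (SE 0.08, adjusted p = 0.213), Ndufs7 at 0.20 (SE 0.09, adjusted p = 0.382) and Ndufs5 at 0.19 (SE 0.08, adjusted p = 0.271).

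Ndufa2, an N module accessory subunit with a thioredoxin-like fold, measured 73.8, 74.9 and 65.3 CPM in TAC vehicle and 65.5, 79.3 and 119.7 CPM in TAC 332 hearts of lanes 3 and 4, and 109.9 and 106 against 123 and 129.9 CPM in lane 1. The lane 1 hearts were separate and those of lanes 3 and 4 overlapped. With no low-count filter it passed (0.27, adjusted p = 0.0207). In all 38 members the TAC vehicle and TAC 332 hearts overlapped, where 1.32% of all genes did not. Complexes II to V had 38 of 41 genes above 0 and a median of 0.10, with 0 called. The mitochondrially encoded complex I genes had 1 of 7 above 0 and a median of -0.08. The 7 fibroblast and 5 leukocyte markers were all below 0 here, with 0 called, and their part was not tested.

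In sham hearts, 332 left no member past the threshold, where 0.00712% of genes passed, and 0 of 38 had an unadjusted p under 0.05, against 4.88% of all genes. DESeq2 also called 0. The log2 values ran from -0.11 (Ndufa1) to 0.10 (Ndufv3), with a median of -0.03 and 13 of 38 above 0, against 7329 of 14047 genes. Without the lane term the median was 0.12, with the 3 lanes as separate terms 0.01, and with 1 heart left out it ran from -0.05 (without TAC 332 replicate 4) to -0.01 (without TAC 332 replicate 5). The difference of the 2 effects of 332, in TAC and in sham hearts, was past the threshold for 0 members in edgeR and in DESeq2, where 0.0641% of genes passed (0.0214% higher and 0.0427% lower), with 1 member at an unadjusted p under 0.05, against 10.0% of all genes. Its median was 0.15 with the lane term, 0.00 without, 0.11 with the 3 lanes as separate terms and 0.09 without TAC 332 replicate 5.

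Members were set against the mean log2 CPM of the other members of their species, over 12 rat or 18 mouse libraries that share their group and lane differences. In rat the correlation (Pearson's r, a description) was 0.84 or more for every tested member but Ndufv3-ps1 (-0.39), highest for Ndufa5 (0.995) and Ndufv1 (0.994). The non-member genes most like the members' mean were Pink1, a kinase of mitophagy (0.997), Cox4i1 (0.996) and Cox6c (0.993) of complex IV, the prohibitin Phb2 (0.993) and Sod2, the mitochondrial superoxide dismutase (0.993). In mouse the range was wider, from 0.988 for Ndufa6 to 0.44 for Ndufs1 and 0.33 for Ndufa4l2. The nearest non-members were Coq7 of ubiquinone synthesis (0.982), Atp5k (0.978), Cox4i1 (0.976), Atp5o (0.975) and Oaz1 (0.973). Esrra followed the members at 0.90 in rat and 0.83 in mouse, and Esrrg at 0.94 in rat and -0.36 in mouse. In rat both receptor genes were targeted by the siRNA, and both stood higher with 915 in scramble cells. There Esrra spanned 226.7 to 228.8 CPM with 915 against 169.5 to 199.0 CPM with vehicle, and Esrrg 263.4 to 301.8 against 130.3 to 130.8 CPM.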

How the data were processed

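Poly(A) RNA was sequenced from 12 rat and 18 mouse libraries. Rat counts and FPKM values per gene were deposited by the authors (build rn6, with featureCounts 1.5.0-p3 as counter, HISAT2 2.0.5 and StringTie 1.3.3b named in the submitters' processing notes beside DESeq2 1.20.0). Mouse estimated counts and TPM values per transcript were deposited by the authors from fastp and Salmon, whose versions and build are not given in the sources used here. The authors' deposited group means, log2 fold changes and p-values were not used. Mouse estimated counts were summed over all transcripts of a gene and rounded.

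Genes were kept by filterByExpr (minimum count 10), scaled by TMM and tested with edgeR 4.0.16 (R 4.3.3) by the quasi-likelihood test, with Benjamini-Hochberg adjustment over all genes and a threshold of 0.05. The mouse fit held a term for lane 1 against lanes 3 and 4, read from the file names. The tests were checked on simulated data. DESeq2 1.42.0, other scalings and filters, the replicate block, lanes apart and each library left out were alternatives, and protein-coding transcripts only and lanes 1, 3 and 4 as separate terms were added after seeing the data. Replicate numbers did not pair the samples. Any member could be named, core subunits and extremes with library values. 1 member is included in counts and sums and not reported here. Members and lists were chosen with earlier results of these data known.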

Additional observations from a re-analysis of the deposited data

Results flagged for a closer look

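Ndufs1 responded less to 915 under the knockdown than with scramble siRNA, by a difference in log2 fold change of -0.39 (adjusted p = 0.0129, edgeR), and the loss of this call with single libraries left out is given in the report. In mouse, 1 single heart stood far from its group among 114 gene and group combinations examined. That is fewer than chance gives, at about 1 in 20. Ndufs3 was at 261 CPM in TAC 332 replicate 5, against 203.5 to 219.6 CPM in the other hearts of that group. That heart belongs to lane 1, and the part of the lane in this value was not tested.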

How the results depend on the processing

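Counts of called members, in either direction, ranged with 1 library left out from 27 to 31 (knockdown in vehicle cells), 26 to 30 (915 in scramble cells), 19 to 24 (915 in knockdown cells), 27 to 32 (knockdown under 915), 0 to 3 (difference of the 915 effects), 25 to 35 (TAC in vehicle hearts), 18 to 31 (TAC in 332 hearts) and 0 to 0 for the 3 comparisons of 332. The difference of the 915 effects had 1 call with DESeq2-type size factors (RLE), with the replicate block and without mitochondrially encoded genes. TAC in vehicle hearts had 8 calls without the lane term, and TAC in 332 hearts had 5 without it, 9 in lanes 3 and 4, 0 in lane 1 and 9 with lanes 1, 3 and 4 as separate terms. With no low-count filter, 332 in TAC hearts had 1. With the replicate block the counts were 28, 29, 21, 30 and 1 in rat and 30, 22, 0, 0 and 0 in mouse. Of single values not past the threshold, Ndufa11 after TAC in vehicle hearts turned to 0.11 and Ndufa1 with 332 in sham hearts to 0.055 without the lane term, Ndufa4l2 after TAC in vehicle hearts to -0.008 with protein-coding transcripts only, and Ndufs1 with 332 in TAC hearts ran from -0.09 to 0.021 with 1 heart left out. The cause of these changes was not tested. Same-numbered libraries correlated at -0.073 to 0.051 in rat and -0.108 to 0.462 in mouse. Depth limits Ndufv3-ps1 and the untested members.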
